A study of Homo sapiens with 12 samples.

Results

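The transcripts of 10 genes of the Eph receptor and ephrin family were followed across 4 lines of human breast epithelium, the MCF10 progression series. The 10 are the receptor genes EPHA1, EPHA2, EPHA4, EPHB2, EPHB3, EPHB4 and EPHB6 and the ligand genes EFNA1, EFNB1 and EFNB2. They were taken by symbol from a table of 59427 gene symbols, and all 10 were found. The family has 22 genes in the table, 14 receptors and 8 ephrins, and the other 12 are used here to give the 10 their context. MCF10A is a non-tumorigenic immortalised line. MCF10AT1 was transformed with HRAS G12V, MCF10DCIS stands for ductal carcinoma in situ and MCF10CA1a is metastatic. As background, both carcinoma lines descend from MCF10AT cells passaged in mice and so carry the introduced HRAS too. Each stage is 1 line, and effects of HRAS therefore cannot be told apart from other differences between the lines. All 4 were kept in 1 kind of medium, which held EGF, insulin, hydrocortisone, cholera toxin and horse serum.

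Eph receptors are the largest family of receptor tyrosine kinases, and their ligands, the ephrins, sit on the membrane of a neighbouring cell, so that signalling needs cell contact. A-type ephrins are anchored by a lipid tail and mostly bind EphA receptors, and B-type ephrins cross the membrane and mostly bind EphB receptors. Both partners can signal, and the usual outcome of contact is repulsion or sorting of cells, which keeps compartments of epithelia apart. In breast epithelium EPHA2 and EPHB4 are the receptors studied most. Ligand-bound EPHA2 is known to dampen RAS/ERK signalling, whereas EPHA2 without ligand can be phosphorylated by serine kinases and then promotes migration.

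The values are TPM (transcripts scaled to a fixed total per library and corrected for length), 1 mean per line over the 3 libraries that the labels state, 12 in all. No value per library was used, so no mean has an error and no difference a test, and neighbours in an order of levels cannot be called different or alike. The depth is unknown. The word higher or lower in a count below means that log2(TPM + 1) differed by at least 1, a 2-fold difference of TPM + 1, and 13108 genes with at least 1 TPM in at least 1 line were put through this rule. All 10 genes passed that filter. Structural and small non-coding RNAs held 66.0% of the TPM in MCF10DCIS and 57.6% in MCF10A, the highest and lowest share, and the TPM of every other gene depends on that share. The median log2 difference from MCF10A over the 13108 genes was -0.07 in MCF10AT1 cells, -0.38 in MCF10DCIS cells and -0.07 in MCF10CA1a cells. In TPM rescaled without these RNAs, ribosomal protein genes and mitochondrially encoded genes (rescaled TPM) it was 0.04, -0.09 and 0.05 in the same order. HRAS was 50.8 TPM in the MCF10A line, 126 in MCF10AT1 cells, 276 in MCF10DCIS cells and 312 in MCF10CA1a cells. Epithelial markers were at 1 TPM or more in every line with the exception of TP63 in MCF10A (0.901 TPM). Of 6 endothelial markers, a cell type known for EPHB4 and EFNB2, CDH5, VWF, TEK and CLDN5 stayed at or below 0.0431 TPM in every line, KDR reached 0.910 TPM in MCF10A, and the summed level of the 6 was 4.76 TPM in the MCF10A line, 0.949 in MCF10AT1 cells, 2.15 in MCF10DCIS cells and 1.58 in MCF10CA1a cells, most of it PECAM1. Of 6 fibroblast, 5 leukocyte and 3 adipocyte markers, 1 of each list reached 1 TPM in any line.

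The 5 genes that varied by at least 1 on the log2 scale over the 4 lines were EPHA1, EPHA2, EPHB2, EPHB6 and EFNB2. The same range was reached by 30.8% of all genes tested. Their promoters are shown because these 5 genes carry the differences below. Each run covers 250 bases before to 50 bases after the annotated start, 5′ to 3′ on the gene's strand, from RefSeq on GRCh38.p14. Capitals mark the GC box GGGCGG or its reverse complement CCGCCC, and, in EFNB2, the TATA box TATAAA in its reverse complement TTTATA.
EPHA1 (chr7:143408807-143409106, minus strand): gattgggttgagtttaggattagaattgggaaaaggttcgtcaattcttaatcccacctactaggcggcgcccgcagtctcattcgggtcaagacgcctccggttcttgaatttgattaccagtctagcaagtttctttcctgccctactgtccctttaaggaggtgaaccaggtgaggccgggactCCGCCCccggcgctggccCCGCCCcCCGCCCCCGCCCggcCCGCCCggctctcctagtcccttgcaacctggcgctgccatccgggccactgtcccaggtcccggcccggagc
EPHA2 (chr1:16156020-16156319, minus strand): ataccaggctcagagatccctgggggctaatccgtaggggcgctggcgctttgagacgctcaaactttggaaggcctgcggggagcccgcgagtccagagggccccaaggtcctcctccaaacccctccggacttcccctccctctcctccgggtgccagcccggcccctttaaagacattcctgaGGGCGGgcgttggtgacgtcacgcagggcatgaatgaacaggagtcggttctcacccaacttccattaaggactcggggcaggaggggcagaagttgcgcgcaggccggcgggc
EPHB2 (chr1:22710588-22710887, plus strand): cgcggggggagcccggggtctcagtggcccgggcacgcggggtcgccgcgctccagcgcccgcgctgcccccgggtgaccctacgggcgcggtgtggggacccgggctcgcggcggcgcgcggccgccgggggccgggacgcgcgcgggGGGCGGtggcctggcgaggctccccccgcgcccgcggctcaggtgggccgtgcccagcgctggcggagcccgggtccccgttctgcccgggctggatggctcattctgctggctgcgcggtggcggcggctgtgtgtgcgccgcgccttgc
EPHB6 (chr7:142862506-142862805, plus strand): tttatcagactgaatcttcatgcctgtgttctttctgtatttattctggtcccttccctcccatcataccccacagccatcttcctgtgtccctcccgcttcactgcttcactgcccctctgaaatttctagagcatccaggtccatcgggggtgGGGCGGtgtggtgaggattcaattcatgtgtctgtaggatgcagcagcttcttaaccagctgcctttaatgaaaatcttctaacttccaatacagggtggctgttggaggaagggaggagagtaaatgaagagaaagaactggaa
EFNB2 (chr13:106535613-106535912, minus strand): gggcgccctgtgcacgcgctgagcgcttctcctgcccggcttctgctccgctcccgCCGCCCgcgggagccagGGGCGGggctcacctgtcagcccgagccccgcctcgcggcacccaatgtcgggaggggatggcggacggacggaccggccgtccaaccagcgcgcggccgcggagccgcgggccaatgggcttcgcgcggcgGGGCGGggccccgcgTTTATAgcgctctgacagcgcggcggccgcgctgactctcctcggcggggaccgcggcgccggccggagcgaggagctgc

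The promoters differed in composition. EPHB2 was 83.0% G and C, above 99.2% of the 34796 RefSeq windows of this length, and EFNB2 was 78.7%. EPHA2 was 64.3% and EPHA1 62.0%. EPHB6 was 48.0%, the only one of these 5 below the median of all windows, 58.7%. The EPHB6 window lies inside the gene as GENCODE places it, at a start downstream of the gene's first base, while the other 4 windows span the gene's first base. At least 1 GC box was found in the promoters of all 10 genes and in 44.9% of all windows. That share is not matched for composition. Of the 10 genes, 9 lay above the median G and C of all windows, and their own median was 70.3%. EPHA1 had 5 GC boxes, EFNB2 had 3, and EPHA2, EPHB2 and EPHB6 had 1 each. The TATA box of EFNB2 began at position -30 counted from the start, and was the only one among the 10 genes, against 11.6% of all windows. The E-box CACCTG or CAGGTG was in EPHA1, EPHB2 and EFNB2, and in 20.6% of all windows. The AP-1 site TGACTCA or TGAGTCA, in 4.96% of windows, and the ETS core CCGGAA or TTCCGG, in 17.2%, were in 0 of the 10. A match gives letters only and says nothing of binding.

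EPHA2, the main EphA receptor of epithelia and a receptor for EFNA1, held the largest level in the set. Its mean was 46.4 TPM in the MCF10A line, 41.3 in MCF10AT1 cells, 59.9 in MCF10DCIS cells and 181 in MCF10CA1a cells. MCF10CA1a stood apart from the other 3 lines. The EPHA2 TPM of MCF10CA1a was 3.90 times that of MCF10A, a log2 difference of 1.94 that was larger than those of 98.5% of all genes tested. It was 4.38 times that of MCF10AT1 and 3.02 times that of MCF10DCIS, with log2 differences of 2.11 and 1.58. In MCF10DCIS the difference from MCF10A was 0.36, above 88.6% of genes, or 0.73 to 0.82 under the 3 other scalings, and in MCF10AT1 it was -0.16, or 0.01 with quantile normalization. EPHA2 lay above 97.4% of the tested genes in MCF10CA1a and above 88.7% in MCF10A. As in any bulk RNA, fewer cells with the transcript and less of it per cell cannot be told apart. The gene is on the minus strand at chr1:16124337-16156087, and an antisense gene at its start, AL451042.2, was at most 1.15 TPM, in MCF10CA1a, and at least 0.600 TPM, in MCF10AT1.

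EPHA1, the founding member of the family and a receptor of differentiated epithelia, was lower in all 3 derived lines. It was 15.8 TPM in the MCF10A line, 3.54 in MCF10AT1 cells, 7.24 in MCF10DCIS cells and 9.76 in MCF10CA1a cells. MCF10AT1 was thus the lowest line and MCF10A the highest. The gene is at chr7:143390289-143408892 on the minus strand. The log2 differences from MCF10A were -1.89 in MCF10AT1 cells, -1.03 in MCF10DCIS cells and -0.64 in MCF10CA1a cells. The first kept its place past the rule of size under every setting tried, and the second was -0.58 to -0.74 under the 3 other scalings. EPHA1 was higher in MCF10CA1a than in MCF10AT1 by 1.25. Its last 823 bases overlap ZYX on the opposite strand, which was 52.4 TPM in the MCF10A line, 46.0 in MCF10AT1 cells, 30.1 in MCF10DCIS cells and 37.9 in MCF10CA1a cells. The antisense gene EPHA1-AS1, over its first 1080 bases, was at or below 0.484 TPM. Whether the counting used strand is not known here, so reads of such overlaps cannot be told apart.

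EPHA4, which binds ephrins of both types, was the lowest of the 10 in MCF10A and MCF10AT1, and in the carcinoma lines only EPHB6 was lower. Its mean was 0.417 TPM in the MCF10A line, 1.17 in MCF10AT1 cells, 0.399 in MCF10DCIS cells and 1.52 in MCF10CA1a cells. MCF10AT1 and MCF10CA1a were the higher pair and MCF10A and MCF10DCIS the lower. The gene is at chr2:221418027-221574202 on the minus strand. The log2(TPM + 1) scale understates differences at such levels. On it EPHA4 differed from MCF10A by 0.62 in MCF10AT1 and 0.83 in MCF10CA1a, and by 1.10 and 1.41 with rescaled TPM. Quantile normalization gave 0.65 and 0.81, and median-of-ratios scaling 0.62 and 0.83.

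**Figure D1:**
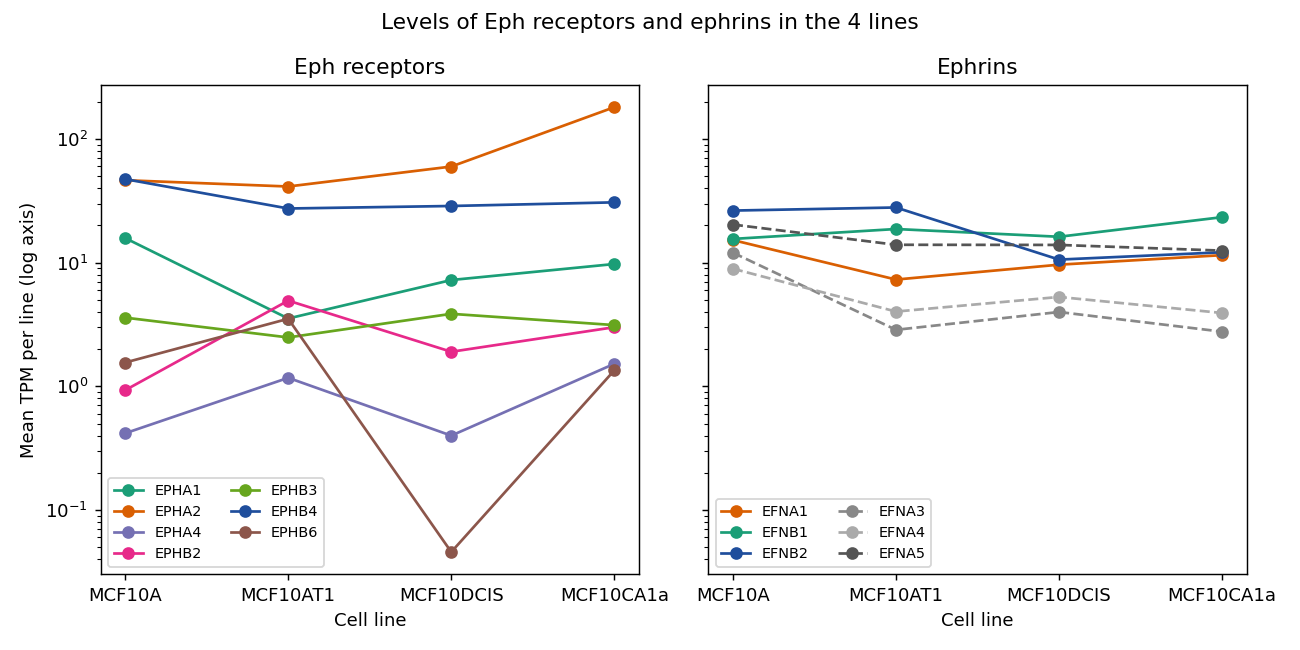
Mean TPM per line on a log axis for the 7 receptor genes (left) and for the 3 ligand genes with the 3 further A-type ephrin genes that passed the filter (right, dashed); each point is the authors' mean for 1 line and lines join points of the same gene. EPHA2 is at 181 TPM in MCF10CA1a and EPHB6 at 0.0457 TPM in MCF10DCIS, and the ephrins stay between 2.77 and 28.0 TPM.

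EPHB4, the receptor of EFNB2 in vessel and mammary development, was the most abundant receptor in MCF10A and second to EPHA2 in the derived lines. It was 47.4 TPM in the MCF10A line, 27.4 in MCF10AT1 cells, 28.8 in MCF10DCIS cells and 30.8 in MCF10CA1a cells. The 3 derived lines lay below MCF10A, with log2 differences of -0.77, -0.70 and -0.61 in the same order. In MCF10DCIS it was -0.25 to -0.35 under the 3 other scalings. None of these passed the rule of size. The gene lies on the minus strand at chr7:100802565-100827521, and its first 702 bases overlap SLC12A9 on the opposite strand (6.49 to 9.56 TPM in the derived lines and 12.2 TPM in MCF10A).

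EPHB2, a kinase that sorts cells in the intestinal crypt, was low and higher in every derived line than in MCF10A. It was 0.930 TPM in the MCF10A line, 4.93 in MCF10AT1 cells, 1.90 in MCF10DCIS cells and 3.01 in MCF10CA1a cells. The highest line was MCF10AT1, with a TPM 5.30 times that of MCF10A and a log2 difference of 1.62, above 98.9% of genes tested. In MCF10CA1a the difference was 1.05. In MCF10DCIS it was 0.59, or 1.14 with rescaled TPM, 0.89 with quantile normalization and 0.87 with median-of-ratios scaling. The difference of MCF10DCIS from MCF10AT1 was -1.03, which was -0.77 under quantile normalization and median-of-ratios scaling. The gene is at chr1:22710839-22921500 on the plus strand.

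EPHB3, which acts with EPHB2 in the crypt, was low in all 4 lines. It was 3.59 TPM in the MCF10A line, 2.48 in MCF10AT1 cells, 3.86 in MCF10DCIS cells and 3.13 in MCF10CA1a cells. No pair of lines passed the rule of size. It is at chr3:184561784-184582409 on the plus strand. The ratio of EPHB2 to EPHB3 was 0.259 in the MCF10A line, 1.99 in MCF10AT1 cells, 0.493 in MCF10DCIS cells and 0.962 in MCF10CA1a cells, so that EPHB2 exceeded EPHB3 in MCF10AT1 and in no other line.

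EPHB6, a receptor whose kinase domain is inactive and which signals through its partners, separated the derived lines from each other. It was 1.56 TPM in the MCF10A line, 3.52 in MCF10AT1 cells, 0.0457 in MCF10DCIS cells and 1.35 in MCF10CA1a cells. MCF10DCIS stood far below the other 3 lines, and MCF10AT1 was the highest. The TPM of MCF10DCIS was 0.0293 of that of MCF10A and 0.0130 of that of MCF10AT1. On the log2(TPM + 1) scale the differences were -1.29 and -2.11, and with a pseudocount of 0.1 they were -3.51 and -4.63. Between MCF10CA1a and MCF10A the difference was -0.12. The gene is at chr7:142855061-142871094 on the plus strand.

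Among the ligands, EFNA1, the A-type ephrin most often paired with EPHA2, was lower in every derived line. It was 15.2 TPM in the MCF10A line, 7.30 in MCF10AT1 cells, 9.64 in MCF10DCIS cells and 11.5 in MCF10CA1a cells. The log2 differences of -0.97, -0.61 and -0.38 did not pass the rule of size. The MCF10AT1 value was -1.05 with a pseudocount of 0.1. The other scalings moved it away from the rule, to -0.84 with quantile normalization, -0.88 with median-of-ratios scaling and -0.90 with rescaled TPM. In MCF10DCIS the EFNA1 difference minus the median of all genes was -0.23. The gene is at chr1:155127460-155134857 on the plus strand.

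EFNB1, a transmembrane ephrin at chrX:68828997-68842147, differed little. It was 15.6 TPM in the MCF10A line, 18.7 in MCF10AT1 cells, 16.2 in MCF10DCIS cells and 23.3 in MCF10CA1a cells. No pair of lines passed the rule of size, and the largest difference from MCF10A was 0.56 in MCF10CA1a. EFNB2, the transmembrane ligand of EPHB4, at chr13:106489731-106535662 on the minus strand, split the lines by stage instead. It was 26.4 TPM in MCF10A and 28.0 in MCF10AT1, and 10.6 in MCF10DCIS and 12.1 in MCF10CA1a. Both carcinoma lines were thus below both earlier lines. The log2 differences from MCF10A were 0.08 in MCF10AT1 cells, -1.24 in MCF10DCIS cells and -1.06 in MCF10CA1a cells, and those from MCF10AT1 were -1.32 and -1.14. Under the 3 other scalings the difference from MCF10A was -0.81 to -0.93 in MCF10DCIS and -0.96 to -0.99 in MCF10CA1a, short of the rule of size. The difference of MCF10DCIS from MCF10AT1 was -0.97 with median-of-ratios scaling. EFNB1 was 1.53 times EFNB2 in MCF10DCIS and 1.92 times in MCF10CA1a, against 0.670 in MCF10AT1 and 0.590 in MCF10A. An intronic transcript on the strand of EFNB2, AL138689.1, was 2.23 TPM in the MCF10A line, 1.67 in MCF10AT1 cells, 0.743 in MCF10DCIS cells and 0.934 in MCF10CA1a cells.

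By the rule of size, 1 of the 10 genes was higher (EPHB2) and 1 lower (EPHA1) in MCF10AT1 than in MCF10A. Of all genes tested, 3.39% were higher and 5.87% lower there. In MCF10DCIS 0 were higher, where 3.56% of all genes were, and 3 were lower (EPHA1, EPHB6 and EFNB2), where 14.8% of all genes were. In MCF10CA1a 2 were higher (EPHA2 and EPHB2) with a background of 5.97%, and 1 was lower (EFNB2) with a background of 7.14%. The 3 comparisons share the MCF10A column. The median difference of the 10 genes was -0.04 in MCF10AT1 cells, -0.31 in MCF10DCIS cells and -0.14 in MCF10CA1a cells, beside -0.07, -0.38 and -0.07 for all genes. With rescaled TPM the counts moved. There were then 3 higher in MCF10AT1 (EPHA4, EPHB2 and EPHB6) with a background of 5.82%, and 1 lower with 6.66%. In MCF10DCIS there was 1 higher (EPHB2) with 7.83%, and 1 lower (EPHB6) with 10.3%. In MCF10CA1a there were 3 higher (EPHA2, EPHA4 and EPHB2) with 9.47%, and 0 lower with 7.8%. Rescaled values are larger, so the added 1 weighs less on them: EPHA4 in MCF10A was 0.417 as deposited and 1.22 rescaled. The higher genes that this scale added in these 3 comparisons did not pass with quantile normalization or median-of-ratios scaling. In MCF10AT1, EPHA4 was 0.65 and 0.62 with these, and EPHB6 0.89 and 0.86.

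Between the derived lines, 0 of the 10 were higher and 3 lower (EPHB2, EPHB6 and EFNB2) in MCF10DCIS than in MCF10AT1, with backgrounds of 3.23% and 7.51%. In MCF10CA1a, 2 were higher (EPHA1 and EPHA2) and 1 lower (EFNB2) than in MCF10AT1, with backgrounds of 6% and 3.97%. Against MCF10DCIS, 2 were higher in MCF10CA1a (EPHA2 and EPHB6) and 0 lower, with backgrounds of 6.03% and 1.35%. With rescaled TPM there was 1 higher (background 6.63%) and 3 lower (7.45%) in MCF10DCIS against MCF10AT1. There were 2 higher (8.37%) and 2 lower (5.46%) in MCF10CA1a against MCF10AT1, and 3 higher (6.02%) and 0 lower (2.88%) in MCF10CA1a against MCF10DCIS.

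**Figure D2:**
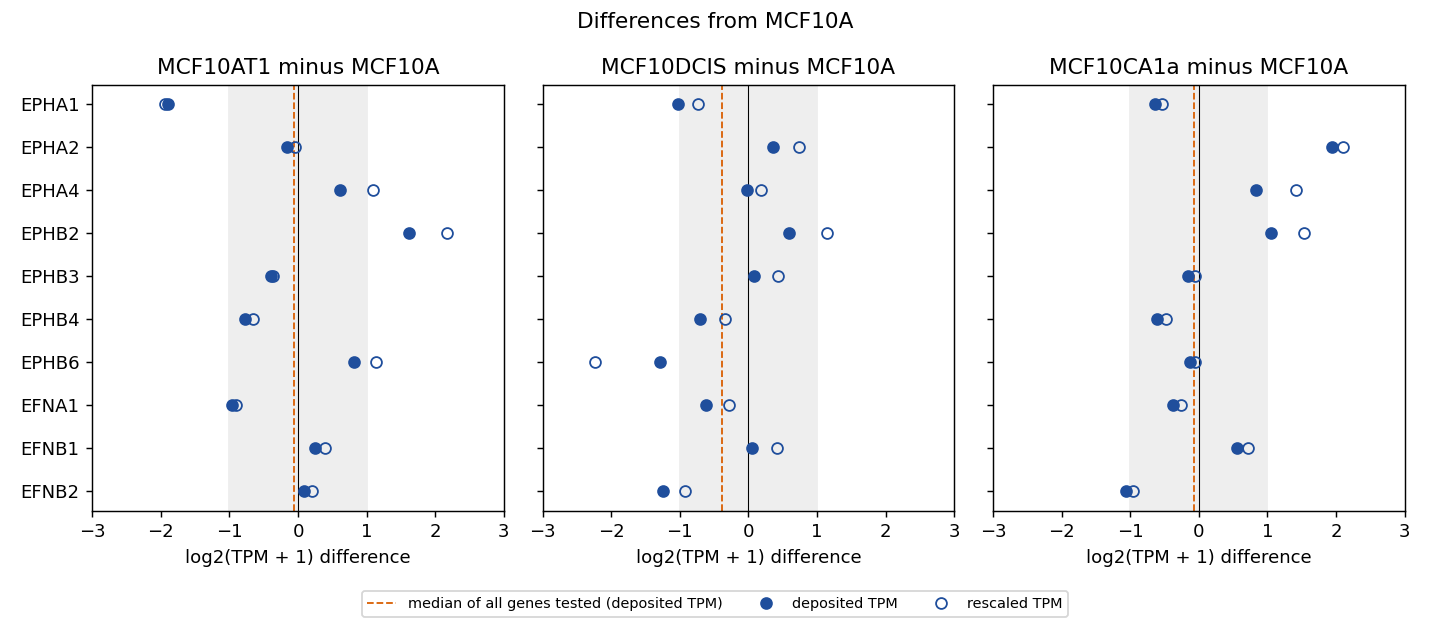
Differences of log2(TPM + 1) from MCF10A for the 10 genes, with filled points for TPM as deposited, open points for rescaled TPM, the grey band for differences under 1 and a dashed line at the median of all genes tested. EPHA2 in MCF10CA1a, EPHB2 in MCF10AT1 and EPHA1 in MCF10AT1 lie outside the band on both scales, while EPHA1 and EFNB2 in MCF10DCIS lie outside it only as deposited.

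Because TPM is per length, levels of different genes can be added and divided within a line. Such ratios do not depend on a scaling that applies a single factor to the line. Quantile normalization does not, and under it the ratio of EPHA2 to EFNA1 in MCF10DCIS went from 6.22 to 6.07. All 14 receptors summed to 117 TPM in the MCF10A line, 84.6 in MCF10AT1 cells, 102 in MCF10DCIS cells and 231 in MCF10CA1a cells. MCF10CA1a thus had 1.98 times the sum of MCF10A, or 2.18 times with rescaled TPM. MCF10DCIS had 0.875 times that of MCF10A, a direction that flipped to 1.13 to 1.21 times under the 3 other scalings. EPHA2 made up 39.8% of this sum in MCF10A cells, 48.9% in MCF10AT1 cells, 58.7% in MCF10DCIS cells and 78.5% in MCF10CA1a cells. EPHB4 made up 40.6%, 32.4%, 28.1% and 13.3% in the same order of lines. EPHA2 and EPHB4 were therefore near equal in MCF10A (ratio 0.980), and EPHA2 was 1.51, 2.08 and 5.89 times EPHB4 in the 3 derived lines. The sum of receptors other than the 7 named genes did not reach 1 TPM in any line, and EPHA8 was listed at 0 in all lines.

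The 8 ephrins summed to 98.6 TPM in the MCF10A line, 75.1 in MCF10AT1 cells, 59.8 in MCF10DCIS cells and 66.4 in MCF10CA1a cells. MCF10DCIS had 0.607 times the sum of MCF10A, or 0.784 to 0.838 times under the 3 other scalings. MCF10CA1a had 1.11 times that of MCF10DCIS, a direction that flipped to 0.854 to 0.949 times under them. Receptor transcripts were 1.18 times ephrin transcripts in MCF10A cells, 1.13 times in MCF10AT1 cells, 1.71 times in MCF10DCIS cells and 3.48 times in MCF10CA1a cells. EphA receptors were 1.12 times the A-type ephrins in MCF10A cells, 1.64 times in MCF10AT1 cells, 2.06 times in MCF10DCIS cells and 6.26 times in MCF10CA1a cells. EphB receptors were at most 1.28 times the B-type ephrins, in MCF10DCIS, and at least 0.819 times, in MCF10AT1. For single pairs, EPHA2 exceeded EFNA1 by a factor of 3.05 in MCF10A cells, 5.66 in MCF10AT1 cells, 6.22 in MCF10DCIS cells and 15.7 in MCF10CA1a cells. The ratio of EPHB4 to EFNB2 was 1.80 in MCF10A cells, 0.981 in MCF10AT1 cells, 2.71 in MCF10DCIS cells and 2.53 in MCF10CA1a cells.

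**Figure D3:**
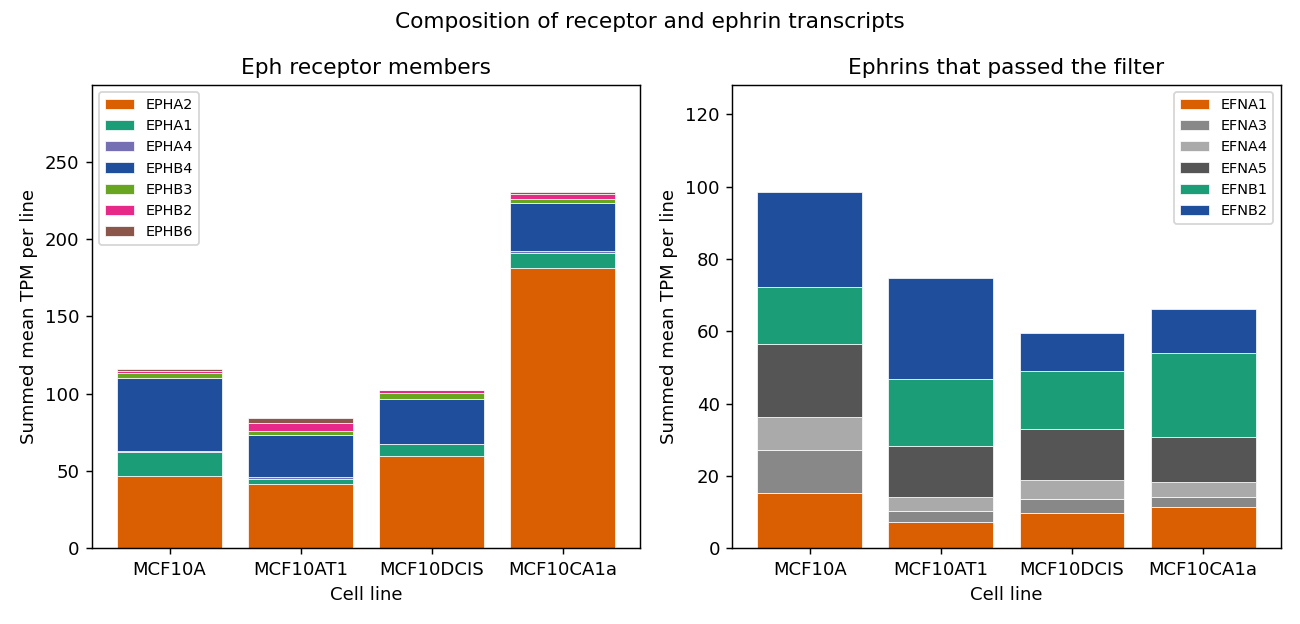
Stacked bars of mean TPM per line for the 7 receptor genes (left) and the 6 ephrin genes that passed the filter (right), each colour 1 gene. The EPHA2 segment is longest in MCF10CA1a at 181 TPM, and the ephrin bar is highest in MCF10A.

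Of the other 12 family genes, EFNA3, EFNA4 and EFNA5 passed the filter. EFNA3 was 12.0 TPM in the MCF10A line, 2.86 in MCF10AT1 cells, 3.99 in MCF10DCIS cells and 2.77 in MCF10CA1a cells, with log2 differences of -1.76, -1.39 and -1.79, all past the rule of size as deposited. With quantile normalization and median-of-ratios scaling the MCF10DCIS value was -0.96 and -0.99. EFNA4 was 8.94 TPM in the MCF10A line, 4.02 in MCF10AT1 cells, 5.28 in MCF10DCIS cells and 3.92 in MCF10CA1a cells. Its log2 differences were -0.98, -0.66 and -1.01, and the last, the only one past the rule of size, was -0.92 to -0.99 under the 3 other scalings. EFNA5, a ligand studied mostly in the nervous system, was between 12.5 and 14.0 TPM in the derived lines and 20.3 TPM in MCF10A, so it exceeded EFNA1 in each line. Its log2 differences of -0.51, -0.52 and -0.66 did not pass the rule of size, and the MCF10DCIS value was -0.08 to -0.17 under the 3 other scalings. EFNA4, EFNA3 and EFNA1 lie next to each other over 71.1 kb at chr1:155063731-155134857. Of the 15 other tested genes within 100 kb of this stretch, the number whose difference from MCF10A lay below that of EFNA1 was 1 in MCF10AT1 cells, 3 in MCF10DCIS cells and 6 in MCF10CA1a cells. Their median difference was -0.25, 0.06 and -0.23 in the same order of lines. SHC1, an adaptor that binds active Eph receptors, lies within 100 kb of it and was higher, with 189 TPM in MCF10AT1 against 78.5 TPM in MCF10A. EPHA3, EPHA5, EPHA6, EPHA7, EPHA8, EPHA10, EPHB1, EFNA2 and EFNB3 were under 1 TPM in every line, and the highest of their values was 0.294 TPM, of EPHA3 in MCF10A.

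Each gene was also set beside the tested genes within 5 Mb on either side, since copy number was not measured. EPHA1, EPHB4 and EPHB6 lie on chromosome 7, where the median difference of 624 genes from MCF10A was -0.53 in MCF10AT1 cells, -0.88 in MCF10DCIS cells and -0.58 in MCF10CA1a cells. EPHB4 differed by -0.77, -0.70 and -0.61, beside medians of -0.45, -0.82 and -0.48 for its 95 neighbours. It lay between their quartiles in MCF10DCIS and MCF10CA1a, where a lower EPHB4 cannot be told apart from a lower level of the region. In MCF10AT1 it was below their lower quartile of -0.70, with 14.7% of them lower. The difference of EPHA1 minus the median of its 43 neighbours was -1.31 in MCF10AT1 cells, -0.22 in MCF10DCIS cells and 0.03 in MCF10CA1a cells. EPHB6, which lies 519 kb from EPHA1, was above all of its 44 neighbours in MCF10AT1, at 1.38 from their median, and at -0.48 from it in MCF10DCIS. At the low level of EPHB6 in MCF10A the pseudocount of 1 limits how far below its neighbours it can lie. The difference of EPHB6 in MCF10DCIS from MCF10A was -2.24 with rescaled TPM and -3.51 with a pseudocount of 0.1. No median of its neighbours was taken at these settings, so its distance from them there is not known.

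Outside chromosome 7, EPHA2 in MCF10CA1a was above 98.6% of its 69 neighbours, whose median was -0.01. EPHB2 was above all of its 102 neighbours in MCF10AT1 and above 96.1% of them in MCF10CA1a. EFNB2 minus the median of its 22 neighbours was -0.96 in MCF10DCIS and -1.05 in MCF10CA1a, with 4.55% of them lower in each. EPHB3 is on a part of chromosome 3 where 52 neighbours had a median of 0.39 in MCF10CA1a, and it differed by -0.15 there.

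**Figure D4:**
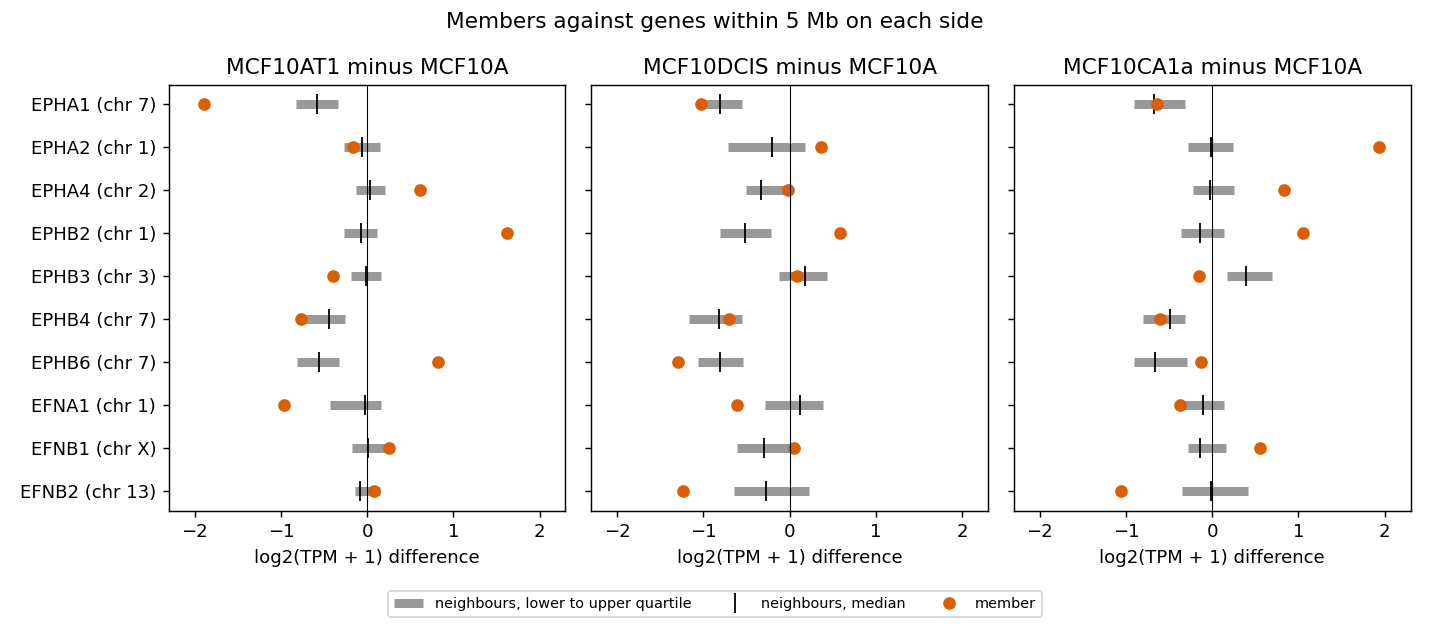
Differences of log2(TPM + 1) from MCF10A for each gene (points) and for the tested genes within 5 Mb on either side of it (bars from lower to upper quartile, with a tick at the median). On chromosome 7 the bars lie below 0 in all 3 derived lines and the EPHB4 point lies in its bar in MCF10DCIS and MCF10CA1a, whereas EPHA2 in MCF10CA1a at 1.94 is far from a bar around 0.

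A list of 36 genes for proteins that act with Eph receptors or ephrins gave the pathway's other parts, and all 36 passed the filter. In MCF10AT1 2 were higher and 2 lower (3 and 3 on the rescaled scale), with a median of -0.19 beside -0.07 for all genes. Of all genes tested, 3.39% were higher and 5.87% lower there (5.82% and 6.66% on the rescaled scale). FYN, a SRC-family kinase, was 5.56 TPM in MCF10AT1 and 0.609 TPM in MCF10A, and SHC1 was higher by 1.25. The tight junction gene CLDN4, whose protein EPHA2 can phosphorylate, was 30.9 TPM in MCF10AT1 and 187 TPM in MCF10A. ARHGEF16, an exchange factor bound by EPHA2, was 3.76 TPM in MCF10AT1 and 9.28 TPM in MCF10A. In MCF10DCIS 1 was higher and 7 lower (2 and 4 on the rescaled scale), with a median of -0.46 beside -0.38 for all genes. The shares of all genes were 3.56% higher and 14.8% lower (7.83% and 10.3% on the rescaled scale), so the count of lower genes was near the background. CHN1, a RAC-inactivating protein downstream of EPHA4, was 2.27 TPM in MCF10DCIS and 24.6 TPM in MCF10A. SDCBP (syntenin), which binds the tails of B-type ephrins, was 21.5 TPM in MCF10DCIS and 97.0 TPM in MCF10A. PIK3R1, a regulatory subunit of phosphoinositide kinases, was 3.13 TPM in MCF10DCIS and 12.2 TPM in MCF10A.

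In MCF10CA1a 3 of the 36 were higher and 4 lower (5 and 4 on the rescaled scale), with a median of 0.07 beside -0.07 for all genes. The shares of all genes were 5.97% higher and 7.14% lower (9.47% and 7.8% on the rescaled scale), and the counts of the list lay near them. The adaptor gene GRB7 was 34.0 TPM in MCF10CA1a and 8.18 TPM in MCF10A, and the kinase gene SRC was 29.3 TPM in MCF10CA1a and 7.09 TPM in MCF10A. TIAM1, an exchange factor for RAC, was 16.9 TPM in MCF10CA1a and 7.80 TPM in MCF10A. CHN1 was 0.882 TPM in MCF10CA1a and 24.6 TPM in MCF10A, PIK3R1 1.56 TPM in MCF10CA1a and 12.2 TPM in MCF10A, and SDCBP 41.0 TPM in MCF10CA1a and 97.0 TPM in MCF10A. SRC, GRB7 and TIAM1 were highest in MCF10CA1a of the 4 lines, as was EPHA2, while CHN1 and PIK3R1 were lowest there. These list genes were named for their difference of MCF10CA1a from MCF10A, so such a place is partly built in. SDCBP, also named as lower, was lowest in MCF10DCIS. Other genes of the list, such as RASA1 and ACP1, were highest in MCF10CA1a too. A link of any of these genes to EPHA2 was not tested.

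For the 5 genes with a range of at least 1, the protein-coding gene of most like pattern was found by the root mean square distance of centred log2(TPM + 1) over the 4 lines, among 11629 candidates. EPHA1 was nearest to the adhesion receptor gene ADGRG1 at 0.075, which was 76.5 TPM in the MCF10A line, 20.2 in MCF10AT1 cells, 32.8 in MCF10DCIS cells and 45.2 in MCF10CA1a cells. EPHA2 was nearest to NEURL3 at 0.096. NEURL3 was 0.135 TPM in MCF10A, listed at 0 in MCF10AT1, 0.231 in MCF10DCIS and 3.09 in MCF10CA1a. It thus passed the filter through MCF10CA1a only, the line where EPHA2 was highest. At such low values the added 1 shapes the pattern, and the match does not extend to TPM ratios. EPHB2 was nearest to TUSC1 at 0.078, EPHB6 to CUL4B at 0.112 and EFNB2 to STRADB at 0.035. The added 1 flattens values near 0, so the EPHB6 match does not extend to TPM ratios. CUL4B was 21.1 TPM in MCF10AT1 and 4.95 in MCF10DCIS, against 3.52 and 0.0457 for EPHB6. With only 4 points such matches are common: 24 candidates lay within 0.25 of EPHA2 and 273 within 0.25 of EFNB2.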

How the data were processed

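RNA was sequenced from 4 cell lines with 3 libraries each by label, prepared from total RNA by a stranded protocol. The authors deposited TPM as 1 mean per line, per the file headers. STAR and edgeR are named as tools and hg38 as the build, per the submitters' processing notes; their versions, the quantifier, the annotation and whether strand was used in counting: not given in the sources used here. From the deposited TPM, log2(TPM + 1) differences were computed with Python 3.11.15, pandas 2.3.3 and numpy 2.4.6, first-named line minus second. Genes with at least 1 TPM in at least 1 line (13108) were tested against a rule of size of 1. No test was possible without values per library, and the depth is unknown. Alternatives were a pseudocount of 0.1, no filter, a 5 TPM filter, scaling by quantiles or by the median of ratios, and TPM brought to 1000000 without structural or small non-coding, ribosomal protein and mitochondrially encoded RNAs. Positions are from GENCODE release 29 on GRCh38, in which 54529 symbols were found; promoters are from RefSeq and matched all 10 genes. The genes named are the 10 members, the other 12 family genes, up to 3 higher and 3 lower genes of the 36-gene list in each comparison with MCF10A, and the gene of most like pattern. The genes overlapping a member were added after their values were seen. The members and lists were chosen with earlier results of these data known. The rule of size was tested on simulated data. There the means of a line were multiplied by known factors without noise, so the simulation says nothing of error between libraries.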

Additional observations from a re-analysis of the deposited data

How the results depend on the processing

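Of the 16 differences of the 10 genes that passed the rule of size over the 6 pairs of lines, 11 passed under every alternative that kept the gene, and none of the 16 changed sign. The filter of 5 TPM left out EPHA4, EPHB2, EPHB3 and EPHB6. The 5 others were EPHA1 in MCF10DCIS against MCF10A, EFNB2 in both carcinoma lines against MCF10A, and EPHB2 and EFNB2 in MCF10DCIS against MCF10AT1. The choice of filter cannot change a difference, and that of the pseudocount cannot change its sign. The scalings shift a line as a whole by less than the rule of size. The median-of-ratios factors, for example, were 0.809 in MCF10DCIS to 1.12 in MCF10A. That the 16 kept their signs was thus largely fixed in advance. Of all 60 differences, 6 changed sign under another scaling, the largest of them 0.23 in size as deposited.

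Counts of the 10 genes moved as follows, with the deposited count in parentheses. The share of all genes was taken as deposited and with rescaled TPM only, and is given above. Under the other settings it is not known whether the counts of the 10 moved more than those of all genes. With a pseudocount of 0.1, which raises differences of low genes, there were 3 higher and 2 lower in MCF10AT1 against MCF10A (1 and 1), 3 higher in MCF10CA1a against MCF10A (2), 1 higher (0) and 4 lower (3) in MCF10DCIS against MCF10AT1, 2 lower in MCF10CA1a against MCF10AT1 (1) and 3 higher in MCF10CA1a against MCF10DCIS (2). With the filter of 5 TPM there were 0 higher in MCF10AT1 against MCF10A (1), 2 lower in MCF10DCIS against MCF10A (3), 1 higher in MCF10CA1a against MCF10A (2), 1 lower in MCF10DCIS against MCF10AT1 (3) and 1 higher in MCF10CA1a against MCF10DCIS (2). With quantile normalization there was 1 lower in MCF10DCIS against MCF10A (3), 0 lower in MCF10CA1a against MCF10A (1), and 1 higher (0) and 2 lower (3) in MCF10DCIS against MCF10AT1. Median-of-ratios scaling gave the first 3 of these counts and 1 lower in MCF10DCIS against MCF10AT1 (3). With rescaled TPM there were 3 higher in MCF10AT1 against MCF10A (1), 1 higher (0) and 1 lower (3) in MCF10DCIS against MCF10A, 3 higher (2) and 0 lower (1) in MCF10CA1a against MCF10A, 1 higher in MCF10DCIS against MCF10AT1 (0), 2 lower in MCF10CA1a against MCF10AT1 (1) and 3 higher in MCF10CA1a against MCF10DCIS (2). No paired analysis was possible because the table holds 1 mean per line; for the same reason no library could be left out. The depth is unknown, so the precision of low values such as EPHB6 in MCF10DCIS cannot be given.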
